A study of Homo sapiens with 14 samples.

Results

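The genes described here are 10 genes that are read in leukemia as measures of stemness: CPXM1, SOCS2, CD34, LAPTM4B, NYNRIN, DPYSL3, SMIM24, BEX3, ADGRG1 and SPINK2. Of these, 9 belong to the 17-gene leukemia stem cell score, an expression signature built from patient samples, and SPINK2 belongs to a related pediatric score that also holds CD34, SOCS2 and ADGRG1. They were chosen by name in the 2 gene tables of the series. Of the 10 genes, 7 had a line in at least 1 table, among 16604 genes in all, and 5 had a line in both. The knockdown table of 16405 genes held CPXM1, SOCS2, CD34, LAPTM4B, NYNRIN and SMIM24. The compound table of 12325 genes held CPXM1, SOCS2, CD34, LAPTM4B, DPYSL3 and SMIM24. BEX3, a neurotrophin receptor partner, ADGRG1, an adhesion G protein-coupled receptor of hematopoietic stem cells, and SPINK2, a serine protease inhibitor, were in neither table and are not analysed here.

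RNA was sequenced in Kasumi-1 cells, a human myeloblast line from acute myeloid leukemia that carries a translocation between chromosomes 8 and 21, so all groups share this fusion-bearing background and are 1 cell line. In the knockdown experiment, cells were infected for 48 h with lentivirus carrying shRNA against RBPMS, an RNA-binding protein (shRBPMS, n = 3), or a scramble shRNA (shCtrl, n = 3), then selected with puromycin for 48 h. In the compound experiment, cells received RB98#, a compound known here by its code name (n = 2), or the solvent DMSO (n = 2), with no dose or time stated. The labels do not say whether replicates were separate cultures, so the p-values below may measure technical spread only.

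Leukemia stem cells are the cells of an acute leukemia that can start the disease again in a transplanted host, and the 17-gene score was derived from genes that distinguish fractions with this capacity. A high score in patients is known to go with a poor response to therapy. In the score each gene has a signed weight. CPXM1 and SMIM24 are counted with a negative weight, as are CDK6, ARHGAP22, ZBTB46 and AKR1C3, whereas SOCS2, CD34, LAPTM4B, NYNRIN, DPYSL3, BEX3 and ADGRG1 are counted with a positive one. The score itself was not computed, since it needs genes not analysed here.

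Each knockdown library held 24.03 to 34.38 M counts (M, 1e+06), and each compound library held 13.85 to 15.35 M. The knockdown libraries carry labels of 2 kinds: replicate 1 of shRBPMS and of shCtrl is called set 1 here, and their replicates 2 and 3 are called set 2. The labels give no meaning for the sets. Mitochondrial genes took 13.2% of counts in shRBPMS and 15.2% in shCtrl in set 1, against 6.20% to 6.95% in the 4 libraries of set 2. All 8 myeloblast markers looked up were present in both tables, with a summed level of at least 13577 CPM (TMM-scaled counts per 1e+06 counts) in every library, most of it MPO, the granule peroxidase of myeloblasts, at 14163 ± 492 CPM in shRBPMS and 14741 ± 2768 CPM in shCtrl. Other markers of the list differed under knockdown in both directions, named here after their values were seen. RUNX1T1 had a lower mean in shRBPMS, at 177 ± 54.9 CPM, against 300 ± 163 CPM in shCtrl. CD38 had 0.756 ± 0.321 CPM in shRBPMS and 1.41 ± 0.524 CPM in shCtrl. KIT had 708 ± 94.5 CPM in shRBPMS and 801 ± 201 CPM in shCtrl. CD38 and KIT overlapped between the groups. The surface protein CD33 had 50.0 ± 9.54 CPM in shRBPMS and 15.3 ± 2.68 CPM in shCtrl, PTPRC (CD45) had 46.4 ± 14.2 CPM in shRBPMS and 9.50 ± 0.412 CPM in shCtrl, and the peptidase ANPEP (CD13) had 623 ± 262 CPM in shRBPMS and 180.3 ± 21.2 CPM in shCtrl (SD, n = 3 each). Of 5 erythroid and 5 fibroblast markers, none was in either table. T-cell markers, 2 of 5 in the knockdown table, summed to 2.04 to 2.74 CPM in shRBPMS and 8.76 to 10.8 CPM in shCtrl. Monocyte markers, also 2 of 5, went the other way, at 5.90 to 7.34 CPM in shRBPMS and 3.88 to 5.68 CPM in shCtrl. B-cell and epithelial sums overlapped. In the compound table the B-cell, megakaryocyte and epithelial sums were lower in RB98# without overlap. The monocyte sum was higher there, and the T-cell sum overlapped. The part of these markers in the results was not tested. In these bulk libraries, fewer cells of a type and less RNA per cell cannot be told apart.

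RBPMS, the targeted gene, had 2.53, 3.34 and 3.08 CPM in shRBPMS libraries, against 20.4, 7.24 and 7.39 CPM in shCtrl libraries. The groups did not overlap, and the shCtrl library of set 1 stood well above the other two. The log2 fold change was -1.96 ± 0.45 (SE), with an adjusted p of 0.0846 (edgeR quasi-likelihood test, Benjamini-Hochberg over all genes) and 0.0106 in the same test with the replicate number as a block. RBPMS did not pass the test in the compound experiment, with 6.62 and 8.06 CPM in RB98# and 7.17 and 6.40 CPM in DMSO (adjusted p of 0.678, edgeR).

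The promoters of 3 genes are shown because their genes carry the main results: CPXM1 and NYNRIN are the members with the lowest fold changes under knockdown, and CD34 is the member that passed the test under RB98# in every setting tried. Each line is the 250 bases before the RefSeq transcription start (GRCh38.p14), written 5′ to 3′ in the sense of the gene, with capitals marking the GC-box letters GGGCGG or their reverse complement and the TATA-box letters TATAAA.
CPXM1: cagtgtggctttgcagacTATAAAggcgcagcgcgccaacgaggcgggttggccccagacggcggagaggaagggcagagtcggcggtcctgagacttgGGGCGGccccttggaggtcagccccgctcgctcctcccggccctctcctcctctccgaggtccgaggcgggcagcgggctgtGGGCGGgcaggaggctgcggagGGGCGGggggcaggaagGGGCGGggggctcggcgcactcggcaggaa
NYNRIN: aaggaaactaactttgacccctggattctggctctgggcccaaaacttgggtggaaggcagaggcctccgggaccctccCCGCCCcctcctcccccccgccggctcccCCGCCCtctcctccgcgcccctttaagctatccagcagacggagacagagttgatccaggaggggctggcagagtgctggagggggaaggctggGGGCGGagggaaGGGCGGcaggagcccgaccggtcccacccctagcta
CD34: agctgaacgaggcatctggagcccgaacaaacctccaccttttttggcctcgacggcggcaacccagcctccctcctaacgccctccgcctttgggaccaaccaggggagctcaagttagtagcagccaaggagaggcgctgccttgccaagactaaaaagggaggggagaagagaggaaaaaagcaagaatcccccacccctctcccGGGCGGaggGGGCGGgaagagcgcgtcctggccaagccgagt

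These windows are chr20:2800628-2800877 on the minus strand for CPXM1, chr14:24398753-24399002 on the plus strand for NYNRIN and chr1:207911126-207911375 on the minus strand for CD34. The GENCODE v29 gene spans given below start elsewhere than RefSeq. By those spans the whole CD34 window, most of the NYNRIN window and a few bases of the CPXM1 window lie inside their genes. All 3 were rich in G and C, at 73.2% for CPXM1, 67.6% for NYNRIN and 61.6% for CD34. CPXM1 and NYNRIN each held 4 GC-box matches and CD34 held 2, and CPXM1 also held a TATAAA at 232 bases before the start. Of 35116 promoters in the table, 42.6% held GGGCGG and 10.7% held TATAAA on either strand. The letters searched for blood transcription factors were TGTGGT for RUNX, found in 11% of all promoters, TTCNNNGAA for STAT, found in 6.57%, GGAAGT for ETS, found in 19.5%, and AGATAA for GATA, found in 9.17%, both strands counted. None of these 4 was present in the 3 windows. Of the 10 genes, 8 had a promoter in the table, and among them the promoter of ADGRG1 held a STAT match, TTCCTGGAA.

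The knockdown comparison asks what loss of RBPMS does to the score genes in Kasumi-1 cells. CPXM1 fell to 25.2 ± 3.19 CPM in shRBPMS, against 69.5 ± 9.08 CPM in shCtrl, and SOCS2 rose to 24.3 ± 1.55 CPM in shRBPMS, against 13.0 ± 1.79 CPM in shCtrl (SD, n = 3 each). NYNRIN had 0.187 ± 0.144 CPM in shRBPMS and 2.14 ± 1.00 CPM in shCtrl, a gap with an adjusted p of 0.0522 in the edgeR test of group alone that passed in 6 of 15 alternatives tested, the replicate block among them. CD34, LAPTM4B and SMIM24 did not pass the test, and CD34 and LAPTM4B overlapped between the groups. Of the 6 members tested, 2 were called, SOCS2 higher and CPXM1 lower, where 1.97% of all 16215 genes tested were called, 0.629% higher and 1.34% lower (edgeR quasi-likelihood test, group alone, adjusted p under 0.05). With the replicate number as a block, 3 of 6 were called, with NYNRIN added, where 28.1% of all genes were called, 13.3% higher and 14.8% lower. The median log2 fold change of the 6 was -0.23, beside 0.02 over all genes tested.

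**Figure D1:**
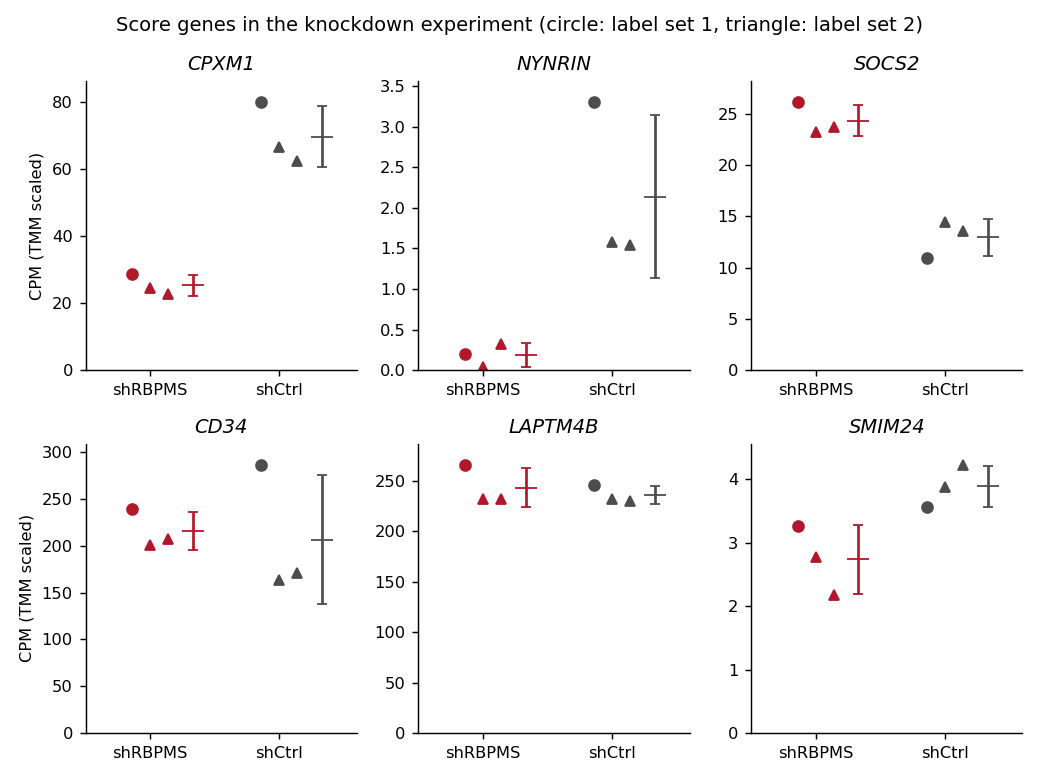
Level of each score gene in the knockdown experiment, in TMM-scaled CPM on linear axes from 0, with a point per library (circle for label set 1, triangle for label set 2) and a bar for the group mean ± SD, n = 3. CPXM1 and NYNRIN lie lower and SOCS2 higher in all shRBPMS libraries, while CD34 and LAPTM4B overlap and the set 1 shCtrl library of CD34 lies at 286 CPM.

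CPXM1 (ENSG00000088882, chr20:2794069-2800637, minus strand, GENCODE v29 on GRCh38) encodes a secreted protein of the carboxypeptidase family. It had 28.8, 24.3 and 22.6 CPM in the shRBPMS libraries, against 79.7, 66.4 and 62.4 CPM in the shCtrl libraries. The highest shRBPMS library lay far below the lowest shCtrl library. The log2 fold change was -1.46 ± 0.16 (SE), with a 95% interval of -1.84 to -1.08 and an adjusted p of 0.0222 (edgeR), and 1.83e-04 with the block. Within label set 1 the log2 ratio was -1.47 and within set 2 it was -1.46. The test of whether the effect differed between the sets, added after the data were seen, gave a difference of 0.02 with an adjusted p of 0.951 (edgeR). The call depended on the libraries kept. It held without shCtrl replicate 1 (adjusted p of 0.0214) and without shRBPMS replicate 1 (0.0499), and was lost without any of the other 4 libraries, with adjusted p of 0.0974 to 0.153 (edgeR), while the fold change stayed between -1.57 and -1.36.

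NYNRIN (ENSG00000205978, chr14:24398786-24419288, plus strand) is a gene with an NYN nuclease-like domain and a part derived from a retroviral integrase. It was counted 5, 1 and 9 times in the shRBPMS libraries, against 74, 44 and 54 times in the shCtrl libraries. These are 0.204, 0.0351 and 0.322 CPM in shRBPMS, against 3.30, 1.58 and 1.54 CPM in shCtrl, with no overlap. Its log2 fold change was -3.48 ± 0.65 (SE), with a 95% interval of -5.02 to -1.95. The adjusted p was 0.0522 in the test of group alone and 0.00302 with the block (edgeR), and the DESeq2 Wald test gave 1.26e-05. Within set 1 the log2 ratio was -4.02 and within set 2 it was -3.13. The difference between the sets had an adjusted p of 0.597 (edgeR). All 3 shRBPMS counts were below the filter's count of 10, so NYNRIN passed the filter through the shCtrl libraries, and the count of members called is no support for its direction. Without the filter its adjusted p was 0.0516 (edgeR).

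SOCS2 (ENSG00000120833, chr12:93569814-93583487, plus strand) is a suppressor of cytokine signalling, known as a feedback inhibitor that STAT5 induces after growth hormone and hematopoietic cytokines. It had 26.1, 23.2 and 23.7 CPM in the shRBPMS libraries, against 11.0, 14.4 and 13.5 CPM in the shCtrl libraries. All shRBPMS libraries were above all shCtrl libraries. SOCS2 had a log2 fold change of 0.91 ± 0.16 (SE), with a 95% interval of 0.53 to 1.28 and an adjusted p of 0.0449 (edgeR), and 0.0028 with the block. The log2 ratio was 1.25 within set 1 and 0.75 within set 2. The call held without shCtrl replicate 1 (adjusted p of 0.0459, edgeR) and was lost without any other single library, up to 0.205, and also with library totals in place of TMM (0.0514). A long noncoding gene on the other strand, SOCS2-AS1, shares 1955 bases with SOCS2, and whether counting used strand is not given in the sources used here. SOCS2-AS1 was counted 134, 66 and 71 times in shRBPMS and 80, 48 and 95 times in shCtrl, so its counts overlapped between the groups and were below those of SOCS2 in every library.

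CD34 (ENSG00000174059, chr1:207880972-207911402, minus strand) encodes the sialomucin by which blood stem and progenitor cells are sorted. It had 239, 201 and 207 CPM in the shRBPMS libraries, against 286, 163 and 171 CPM in the shCtrl libraries. The set 1 shCtrl library was the highest of all 6 and the set 2 shCtrl libraries were the lowest, so the groups overlapped. The log2 fold change over all libraries was 0.06 ± 0.24 (SE), with a 95% interval of -0.50 to 0.62 and an adjusted p of 0.95 (edgeR). Within set 1 the log2 ratio was -0.26, with no replicate, and within set 2 it was 0.29. In set 2 alone CD34 was called higher in shRBPMS (log2 fold change of 0.29, adjusted p of 1.65e-06, edgeR). A test of the effect in set 2 minus that in set 1, added after the data were seen, gave 0.55 ± 0.07 (SE) with an adjusted p of 2.21e-06 (edgeR), where 17.3% of all genes passed the same test. Set 1 has 1 library per group, so the spread in this test comes from the 2 close pairs of set 2. An antisense gene, AL356275.2, shares 1411 bases with CD34 and was counted 32, 31 and 33 times in shRBPMS and 12, 14 and 20 times in shCtrl, against at least 4542 counts of CD34 in each library.

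**Figure D2:**
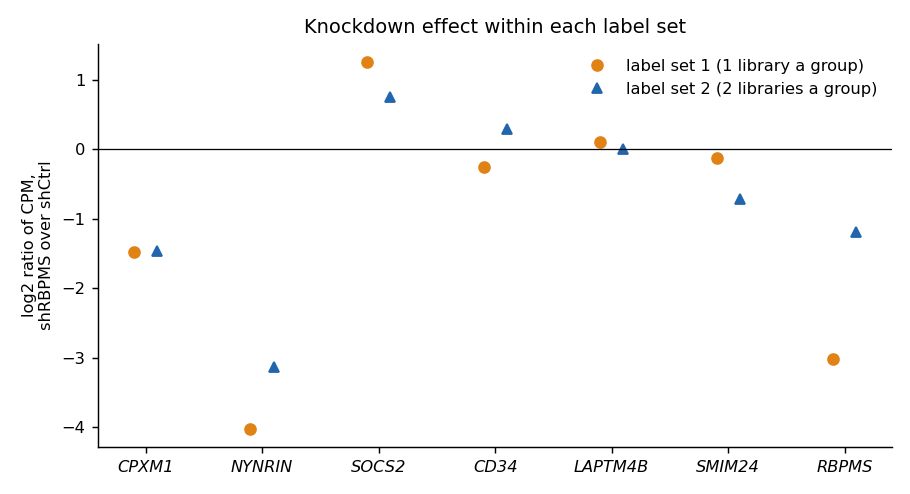
Log2 ratio of CPM, shRBPMS over shCtrl, within label set 1 (orange circles, 1 library a group, no error) and within label set 2 (blue triangles, the mean of 2 libraries a group), for the score genes and RBPMS. CPXM1 has the same ratio in both sets, at -1.47 and -1.46, whereas CD34 lies at -0.26 in set 1 and 0.29 in set 2.

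LAPTM4B (ENSG00000104341, chr8:97775057-97853013, plus strand) encodes a membrane protein of late endosomes and lysosomes. It had 266, 233 and 232 CPM in the shRBPMS libraries, against 246, 232 and 230.1 CPM in the shCtrl libraries. The values of the set 2 libraries were close to one another in both groups. LAPTM4B had a log2 fold change of 0.04 ± 0.12 (SE), with a 95% interval of -0.23 to 0.32 and an adjusted p of 0.916 (edgeR).

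SMIM24 (ENSG00000095932, chr19:3473986-3480542, minus strand) encodes a small integral membrane protein. It had 3.26, 2.77 and 2.18 CPM in the shRBPMS libraries, against 3.57, 3.87 and 4.22 CPM in the shCtrl libraries. No shRBPMS library reached the lowest shCtrl library, yet the gap in set 1 was small. SMIM24 had a log2 fold change of -0.51 ± 0.23 (SE), with a 95% interval of -1.05 to 0.03, an adjusted p of 0.33 (edgeR), and 0.101 with the block. The log2 ratio was -0.13 within set 1 and -0.71 within set 2, where the adjusted p of set 2 alone was 0.00354 (edgeR). The test of the difference between the sets gave an adjusted p of 0.254. Counting the members whose groups did not overlap, CPXM1, NYNRIN, SOCS2 and SMIM24, gave 4 of 6, where 25.9% of all genes tested did not overlap. Since NYNRIN passed the filter through its shCtrl libraries, this count too is no support for its direction.

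The other genes of the 17-gene score were looked at beside the members. Of 8 such genes, 5 were tested in the knockdown experiment and none was called in the edgeR test of group alone, with 2 of 5 at an unadjusted p under 0.05. The replicate block called 3 of 5, all lower, where it called 28.1% of all genes and 14.8% lower. The DESeq2 Wald test called 2 of 5, and summing replicates 2 and 3 in a fit that also has the label set called 2 of 5, DNMT3B and MMRN1. The median log2 fold change was -0.37. DNMT3B, a de novo DNA methyltransferase, had 28.3 ± 0.817 CPM in shRBPMS and 38.3 ± 1.21 CPM in shCtrl, a log2 fold change of -0.44 with an adjusted p of 0.112 and 0.00516 with the block (edgeR). MMRN1, a multimerin of platelets and endothelium, had 0.391 ± 0.13 CPM in shRBPMS and 1.58 ± 1.16 CPM in shCtrl, with an adjusted p of 0.155 and 0.0305 with the block (edgeR). Its shRBPMS libraries, at 0.285, 0.351 and 0.537 CPM, did not all reach the filter, so with libraries kept separate MMRN1 passed it through shCtrl. The counts of other score genes called are thus no support for its direction. Megakaryocyte markers, 2 of 5 in the knockdown table, summed to 2.65 to 3.08 CPM in shRBPMS and 5.30 to 7.05 CPM in shCtrl, and their part in the MMRN1 values was not tested. CDK6, a cyclin-dependent kinase of G1, averaged 549 CPM in shRBPMS and 709 CPM in shCtrl, with an adjusted p of 0.667, 0.00457 with the block and 0.0666 in the fit of summed replicates (edgeR). ARHGAP22, a GTPase-activating protein for Rac, averaged 33.7 CPM in shRBPMS and 35.6 CPM in shCtrl, and ZBTB46, a transcription factor of dendritic cells, averaged 2.97 CPM in shRBPMS and 2.45 CPM in shCtrl. Neither passed the test. FAM30A, EMP1 and AKR1C3 are not analysed here.

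The cytokine pathway around SOCS2 was followed with 35 genes of JAK-STAT5 signalling, its receptors, feedback inhibitors and targets. All 35 were tested under knockdown, with a median log2 fold change of 0.00. With the block, 6 were called higher and 9 lower, where 28.1% of all genes were called, 13.3% higher and 14.8% lower. CISH, a SOCS family member induced by STAT5, had a log2 fold change of 0.15 with an adjusted p of 0.271 in the blocked edgeR fit, while SOCS3 fell by 0.63 on the log2 scale there with an adjusted p of 0.00286 and had an adjusted p of 0.738 without the block. CISH and SOCS3 were named after their values were seen.

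Among 36 genes related to the members by sequence, 22 were tested under knockdown and 1 was called, LAPTM5, the lysosomal relative of LAPTM4B in blood cells. Of all genes tested, 1.97% were called, 0.629% higher and 1.34% lower. LAPTM5 had 38.7 ± 18.8 CPM in shRBPMS and 7.52 ± 0.526 CPM in shCtrl (log2 fold change of 2.36, adjusted p of 0.0303, edgeR). The block called 4 of the relatives higher and 4 lower, where it called 28.1% of all genes, 13.3% higher and 14.8% lower. SPINK4, among the lower ones, passed the filter through shCtrl (0.381 ± 0.262 CPM in shRBPMS, 2.13 ± 0.368 CPM in shCtrl), so the count is no support for its direction. Of 28 other stem and progenitor genes, 20 were tested and 2 were called, both lower, TRH, the precursor of thyrotropin-releasing hormone, and HOPX, a homeodomain-only protein. Of all genes, 1.34% were called lower in the same test. With the block, 4 of these 20 were called higher and 8 lower, beside 13.3% of all genes higher and 14.8% lower. HOPX had 0.136 ± 0.0385 CPM in shRBPMS and 0.889 ± 0.245 CPM in shCtrl (log2 fold change of -2.66, adjusted p of 0.0322, edgeR). Its shRBPMS libraries, at 0.122, 0.105 and 0.179 CPM, were below the filter's count of 10. HOPX thus passed the filter through the shCtrl libraries, and its call, with or without the block, is no support for its direction. CLEC12A, among those called higher with the block, passed it through shRBPMS, with 2.07 ± 1.27 CPM in shRBPMS and 0.381 ± 0.0407 CPM in shCtrl. The block counts are no support for the direction of either gene. TRH had 15.8 ± 7.54 CPM in shRBPMS and 166 ± 97.4 CPM in shCtrl (log2 fold change of -3.39, adjusted p of 0.0336, edgeR). Of 24 myeloid maturation genes, 16 were tested and 1 was called higher, where 0.629% of all genes were called higher. It was BPI, a granule protein that binds bacterial endotoxin, with 6.58 ± 1.17 CPM in shRBPMS and 1.87 ± 0.578 CPM in shCtrl (log2 fold change of 1.81, adjusted p of 0.038, edgeR). The median log2 fold change of the maturation genes was 0.41, and the block called 8 of them higher and 0 lower, where it called 13.3% of all genes higher and 14.8% lower. The 8 include TYROBP (0.840 ± 0.116 CPM in shRBPMS, 0.282 ± 0.166 CPM in shCtrl) and CSF1R (0.979 ± 0.224 CPM in shRBPMS, 0.349 ± 0.121 CPM in shCtrl). Both passed the filter through their shRBPMS libraries, so the count of 8 is no support for their direction. Without the block the DESeq2 Wald test called 3 higher and 0 lower. The calls of LAPTM5, TRH, HOPX and BPI were each lost, in the edgeR test, in 5 of the 6 fits that leave out 1 library.

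The compound comparison asks what RB98# does to the same genes. CD34 fell to 157 ± 4.94 CPM in RB98#, against 204 ± 6.28 CPM in DMSO, and DPYSL3, close to the table's minimum of 50 summed counts, was higher in RB98#, at 1.40 ± 0.24 CPM, against 0.584 ± 0.15 CPM in DMSO (SD, n = 2 each). CPXM1 overlapped between the groups, and SOCS2, SMIM24 and LAPTM4B did not pass the test. Of the 6 members tested, 2 were called, DPYSL3 higher and CD34 lower, where 37.8% of all 12324 genes tested were called, 20.5% higher and 17.3% lower (edgeR, adjusted p under 0.05). The share of members called is near that background. DPYSL3 is in the table through its RB98# counts, since its DMSO level in all 4 libraries would not reach the minimum of 50, so the count of members called is no support for its direction. The median log2 fold change of the members was -0.15, beside 0.00 over all genes tested. In TMM-scaled CPM the groups did not overlap for 5 of 6 members, all but CPXM1, where 68.3% of all genes did not overlap. That count too is no support for the direction of DPYSL3.

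**Figure D3:**
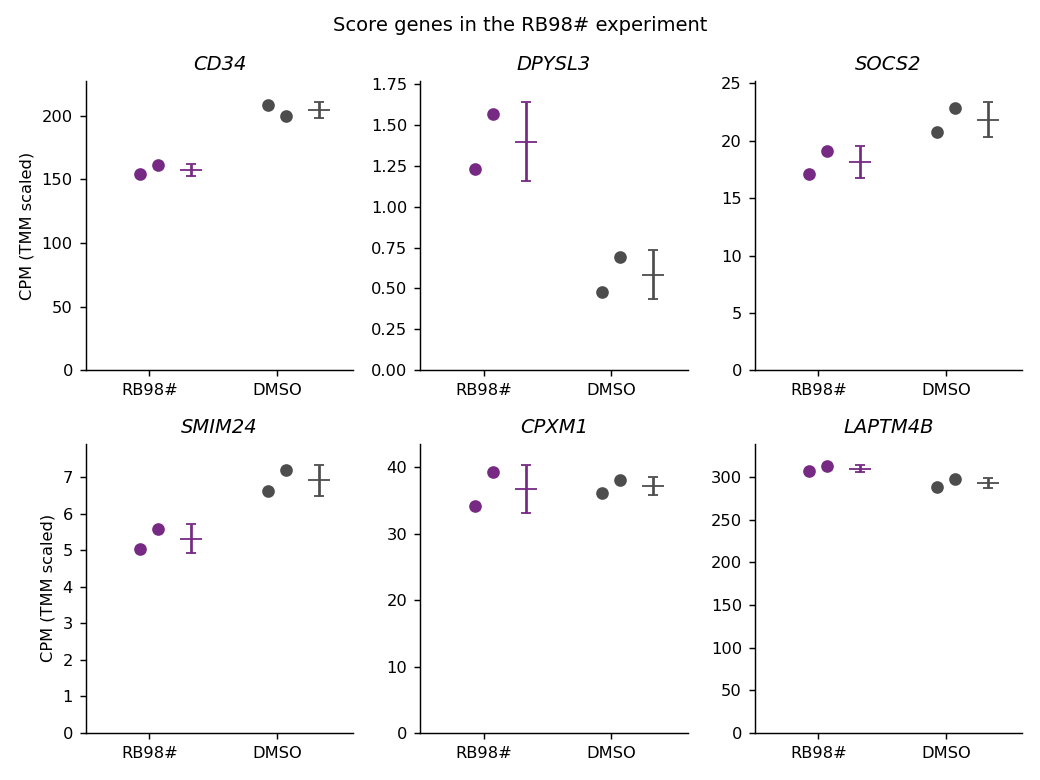
Level of each score gene in the compound experiment, in TMM-scaled CPM on linear axes from 0, with a point per library and a bar for the group mean ± SD, n = 2. The RB98# libraries of CD34 lie at 154 and 161 CPM, below the DMSO libraries, those of DPYSL3 lie above the DMSO libraries, and CPXM1 overlaps.

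CD34 had 154 and 161 CPM in the RB98# libraries, against 209 and 199.8 CPM in the DMSO libraries. Both RB98# libraries were below both DMSO libraries by more than the spread within either group. CD34 had a log2 fold change of -0.37 ± 0.06 (SE), with a 95% interval of -0.50 to -0.25 and an adjusted p of 3.81e-05 (edgeR). CD34 was called in all 10 alternatives run for this comparison, with fold changes of -0.48 to -0.34 and a highest adjusted p of 0.00987.

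DPYSL3 (ENSG00000113657, chr5:147390811-147510056, minus strand) encodes a collapsin response mediator protein that binds the cytoskeleton in neurons. It was counted 18 and 21 times in the RB98# libraries, against 7 and 11 times in the DMSO libraries. These are 1.23 and 1.57 CPM in RB98#, against 0.478 and 0.69 CPM in DMSO, with no overlap. Its log2 fold change was 1.23 ± 0.48 (SE), with a 95% interval of 0.24 to 2.23 and an adjusted p of 0.0465 (edgeR). At these counts the call was fragile. It held in 3 of 10 alternatives and in 0 of the 4 fits that leave out 1 library, where the edgeR adjusted p was 0.0536 to 0.249, and the DESeq2 Wald test gave 0.215. DPYSL3 is not in the knockdown table and was not tested there.

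SOCS2 had 17.1 and 19.1 CPM in the RB98# libraries, against 20.8 and 22.9 CPM in the DMSO libraries. The groups lay close without overlap. Its log2 fold change was -0.27 ± 0.12 (SE), with an adjusted p of 0.0794 (edgeR). It passed in 2 of 10 alternatives, with library totals in place of TMM (0.0177), a scaling that moves the median of all genes to -0.10, and without RB98# replicate 2 (0.0339). SOCS2-AS1 was counted 15 and 24 times in RB98# and 25 and 49 times in DMSO.

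SMIM24 was counted 74 and 75 times in the RB98# libraries, against 97 and 115 times in the DMSO libraries, which is 5.05 and 5.60 CPM in RB98# and 6.62 and 7.22 CPM in DMSO. The RB98# libraries were both lower. The log2 fold change of -0.38 ± 0.20 (SE) had an adjusted p of 0.141 (edgeR). LAPTM4B had 307 and 313 CPM in RB98#, against 289 and 297 CPM in DMSO, a log2 fold change of 0.08 ± 0.06 (SE) with an adjusted p of 0.286 (edgeR). CPXM1 had 34.1 and 39.3 CPM in RB98#, against 36.2 and 38.1 CPM in DMSO. The RB98# values of CPXM1 enclosed the DMSO values, and the log2 fold change was -0.02 ± 0.10 (SE), with a 95% interval of -0.22 to 0.18 and an adjusted p of 0.892 (edgeR).

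Per length of transcript, as deposited FPKM for the compound experiment, LAPTM4B was the most abundant member at 93.4 ± 1.39 FPKM in RB98# and 94.8 ± 2.33 FPKM in DMSO. Unlike in TMM-scaled CPM, its groups overlapped on this scale, at 92.4 and 94.4 FPKM in RB98# and 93.1 and 96.4 FPKM in DMSO. CD34 followed at 16.5 ± 0.544 FPKM in RB98# and 22.9 ± 0.619 FPKM in DMSO, and CPXM1 at 14.9 ± 1.50 FPKM in RB98# and 16.2 ± 0.664 FPKM in DMSO. In RB98# the mean ± SD ranges of CD34 and CPXM1 overlapped, while in DMSO they were apart. SMIM24 had 3.47 ± 0.258 FPKM in RB98# and 4.83 ± 0.311 FPKM in DMSO, and SOCS2 had 2.70 ± 0.213 FPKM in RB98# and 3.48 ± 0.255 FPKM in DMSO. DPYSL3 was lowest, at 0.188 ± 0.0325 FPKM in RB98# and 0.0841 ± 0.0219 FPKM in DMSO.

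Of the other genes of the score, 4 were tested under RB98# and 2 were called, where 37.8% of all genes were called, 20.5% higher and 17.3% lower. ARHGAP22 fell to 11.8 CPM in RB98#, against 26.6 CPM in DMSO, a log2 fold change of -1.17 ± 0.12 (SE) with an adjusted p of 5.65e-08 (edgeR). CDK6 rose to 813 CPM in RB98#, against 667 CPM in DMSO, a log2 fold change of 0.29 ± 0.05 (SE) with an adjusted p of 1.53e-04 (edgeR). Both were called in all 10 alternatives. DNMT3B averaged 34.3 CPM in RB98# and 40.1 CPM in DMSO, with an adjusted p of 0.0657, and ZBTB46 had an adjusted p of 0.787 (edgeR).

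Of the 35 JAK-STAT5 genes, 34 were tested under RB98#, and 15 were called higher and 4 lower, with a median log2 fold change of 0.20, where 20.5% of all genes were called higher and 17.3% lower. The higher count was 10 to 16 with 1 library left out and 10 by the DESeq2 Wald test. MCL1, a survival protein of the BCL2 family, rose to 486 ± 34.8 CPM in RB98#, against 264 ± 5.42 CPM in DMSO (log2 fold change of 0.88, adjusted p of 2.06e-11, edgeR). OSM, the cytokine oncostatin M, rose to 1.97 ± 0.276 CPM in RB98#, against 0.752 ± 0.00134 CPM in DMSO (log2 fold change of 1.38, adjusted p of 0.0123, edgeR), and ID1, an inhibitor of helix-loop-helix factors, fell to 23.0 ± 0.409 CPM in RB98#, against 39.0 ± 1.45 CPM in DMSO (log2 fold change of -0.76, adjusted p of 1.49e-06, edgeR). Like DPYSL3, OSM is listed through its RB98# counts, since its DMSO level in all 4 libraries would not reach the minimum of 50. Its call is no support for its direction. The OSM call was lost in some fits that leave out 1 library, with fold changes of 1.23 to 1.50. SOCS3, a sister of SOCS2 that is induced by STAT3, rose to 11.5 ± 1.74 CPM in RB98#, against 7.11 ± 0.656 CPM in DMSO (log2 fold change of 0.69, adjusted p of 0.00256, edgeR).

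Of the relatives by sequence, 19 were tested under RB98#, and 7 were called higher and 2 lower, beside the same 20.5% and 17.3% of all genes. With 1 library left out the counts were 4 to 7 higher and 0 to 3 lower, the fewest without DMSO replicate 2, and library totals in place of TMM gave 4 higher and 4 lower. KHNYN, which shares the nuclease-like domain of NYNRIN and is a cofactor of the antiviral protein ZAP, rose to 123 ± 2.54 CPM in RB98#, against 77.1 ± 4.09 CPM in DMSO (log2 fold change of 0.67, adjusted p of 5.12e-08, edgeR). DPYSL2, the paralog of DPYSL3, went the other way from DPYSL3, at 5.02 ± 1.30 CPM in RB98# and 7.82 ± 0.828 CPM in DMSO (log2 fold change of -0.63, adjusted p of 0.0192, edgeR), a call lost in the DESeq2 Wald test (0.104). Of the stem and progenitor genes, 16 were tested, with 3 called higher and 3 lower, and 2 higher and 4 lower with library totals. Of all genes, 37.8% were called, 20.5% higher and 17.3% lower. The 3 called higher, named after their values were seen, had smaller changes than TAL1 and LYL1. They were LMO2 (log2 fold change of 0.54, adjusted p of 1.62e-06), MSI2 (0.53, 7.81e-07) and CD99 (0.23, 0.00648, edgeR). TAL1, a helix-loop-helix factor of blood stem cells, fell to 31.8 ± 4.34 CPM in RB98#, against 74.6 ± 1.97 CPM in DMSO (log2 fold change of -1.23, adjusted p of 1.87e-10, edgeR). Its relative LYL1 fell to 101 ± 7.08 CPM in RB98#, against 168 ± 0.279 CPM in DMSO (log2 fold change of -0.73). ENG, the endoglin receptor, fell to 31.2 ± 4.55 CPM in RB98#, against 45.3 ± 0.951 CPM in DMSO (log2 fold change of -0.54). Of the maturation genes, 16 were tested, with 6 called higher and 1 lower and a median log2 fold change of 0.23, again beside 20.5% of all genes called higher and 17.3% lower. With 1 library left out the counts were 1 to 7 higher and 0 lower, with 1 higher without DMSO replicate 2, and library totals gave 4 higher and 2 lower. FCGR1A, a high-affinity IgG receptor, rose to 17.8 ± 0.384 CPM in RB98#, against 8.52 ± 0.694 CPM in DMSO (log2 fold change of 1.07, adjusted p of 2.39e-06, edgeR). CTSG, a neutrophil granule protease, rose to 24.3 ± 0.784 CPM in RB98#, against 18.4 ± 1.33 CPM in DMSO, and CSF1R, the macrophage growth factor receptor, had 0.606 ± 0.012 CPM in RB98# and 1.45 ± 0.271 CPM in DMSO (adjusted p of 0.0426, lost in each fit that leaves out 1 library, edgeR). CSF1R is listed through its DMSO counts, since its RB98# level in all 4 libraries would not reach the minimum of 50. Its call is no support for its direction.

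Knockdown and compound were set against each other through the difference of their log2 fold changes, RB98# over DMSO minus shRBPMS over shCtrl, which share no control library. CPXM1 and SOCS2 were called, 2 of the 5 members in both tables, CPXM1 with a positive difference and SOCS2 with a negative one, where 8.15% of all 12126 genes were called, 4.79% positive and 3.36% negative (edgeR). With the block, 37.1% of all genes were called. For CPXM1 the log2 fold changes were -0.02 under RB98# and -1.46 under knockdown, a difference of 1.43 ± 0.21 (SE) with an adjusted p of 0.00855 (edgeR). For SOCS2 they were -0.27 under RB98# and 0.91 under knockdown, a difference of -1.19 ± 0.21 (SE) with an adjusted p of 0.0129 (edgeR). Both calls depended on the pairs of compound libraries. CPXM1 was lost without either DMSO library (adjusted p of 0.062 and 0.0609), and SOCS2 without any 1 of the 4 RB98# and DMSO libraries (0.055 to 0.0853, edgeR). For CD34 the difference was -0.45 ± 0.32 (SE) with an adjusted p of 0.451 in the edgeR test of groups alone, 0.0465 with the block and 0.00991 without shCtrl replicate 1. LAPTM4B and SMIM24 had differences of 0.02 and 0.12 with adjusted p of 0.957 and 0.86 (edgeR).

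**Figure D4:**
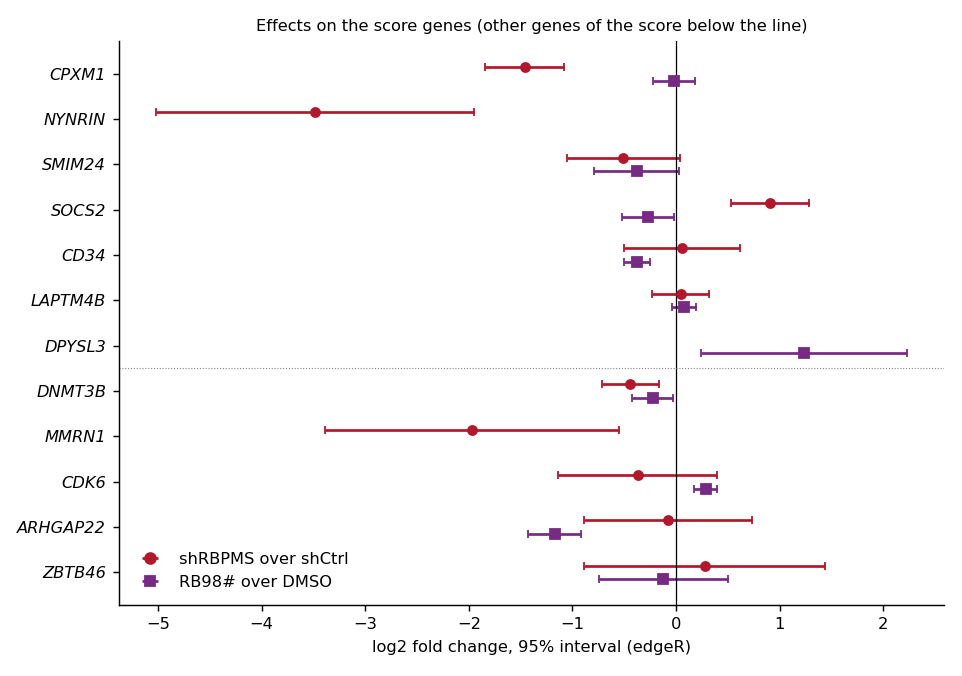
Log2 fold change with its 95% interval (edgeR, group alone) of each score gene under knockdown (red circles, shRBPMS over shCtrl) and under the compound (purple squares, RB98# over DMSO), with other genes of the 17-gene score under the dotted line. CPXM1 lies at -1.46 under knockdown and -0.02 under RB98#, SOCS2 lies on opposite sides of 0, and NYNRIN has the widest interval.

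The authors' deposited tables gave for the knockdown a log2 fold change of -1.46 for CPXM1 (adjusted p of 4.60e-13), 0.84 for SOCS2 (1.53e-04), -3.35 for NYNRIN (6.95e-08) and 0.17 for CD34 (0.7). The authors' deposited table of the compound gave -0.37 for CD34 (adjusted p of 9.76e-06), 1.26 for DPYSL3 (0.325) and -0.27 for SOCS2 (0.366).

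The genes whose pattern was most like each member were found by Pearson's r of log2 CPM over the 10 libraries, with the mean of each experiment taken off, among 10295 genes in both tables. These libraries share their label sets and treatments, so the values describe and are not tested. For CPXM1 they were MFAP2 (r of 0.993) and AEBP1 (0.99). For SOCS2 they were RASGRP2 (0.991) and H2AX (0.982), for CD34 AKAP13 (0.987) and CHMP4B (0.973), for LAPTM4B AFF2 (0.976) and ZBTB5 (0.972), and for SMIM24 RNF216P1 (0.933) and ARHGEF39 (0.931). No gene was named for more than 1 member.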

How the data were processed

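RNA-seq of 10 Kasumi-1 libraries was used. Of 14 samples, the other 4 are not analysed here. The count columns hold raw counts per gene, deposited without normalization, per the file headers. Tools listed in the submitters' processing notes, with no step assigned, include DESeq2 1.32.0, featureCounts 2.0.1, StringTie, HISAT2 2.2.1 and fastp 0.22.0. The compound table's FPKM values were deposited by the authors and give the only levels per length. The knockdown table's signal columns, which the authors adjusted in a way that is not stated, were only compared with the counts. The log2 fold changes and p-values of the authors' deposited tables are quoted where named. Of 12437 compound lines, 112 repeats were dropped. The tables list genes with summed counts of at least 27 (knockdown) and 50 (compound).

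Counts were tested with edgeR 4.0.16 (R 4.3.3): TMM, filterByExpr (count 10, total 15), quasi-likelihood F test, two-sided, group alone, Benjamini-Hochberg at 0.05 over all genes, each experiment alone. All members in a table passed the filter. The difference of both effects used a fit of 10 libraries with 4 groups. Alternatives were DESeq2 1.42.0, limma 3.58.1 (voom), other scalings, no filter, replicate block, label sets and leaving out libraries. Genes beyond the members were named by rule: the other score genes, and up to 3 called genes with the largest change per list. The result of 1 gene that this rule names is not reported here. The members and lists were chosen with earlier results of these data known, and GC and TATA boxes after the sequences were read. The fits were run on simulated counts that held a group effect and the same spread for all genes but no label sets. That check does not cover the label-set structure of the knockdown libraries.

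Same-numbered knockdown libraries deviated together (r of 0.852, 0.772 and 0.8 over 10606 genes), so the numbers pair them by the rule used, although replicates 2 and 3 crossed gave 0.776 and 0.767 and the shared structure follows the label set. Compound libraries gave r of -0.0585 and were not paired. No 2 libraries of a group agreed within sampling noise.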

Additional observations from a re-analysis of the deposited data

Results flagged for a closer look

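The knockdown effect on CD34 differed between the label sets by 0.55 on the log2 scale (set 2 minus set 1), in a test of the difference itself (edgeR adjusted p of 2.21e-06, n = 2 and 1 per group). CD34 was higher in shRBPMS in set 2 and lower in set 1. DESeq2 size factors (4.36e-07), the DESeq2 Wald test (9.10e-09) and limma-voom (2.72e-06) also called it.

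The knockdown effect on SOCS2 differed between the sets by -0.50 on the log2 scale, with an edgeR adjusted p of 0.0273, and was positive in both. DESeq2 size factors (0.0416) and limma-voom (0.0392) called it, and the DESeq2 Wald test did not (0.273). RBPMS itself differed between the sets by 1.82 (edgeR adjusted p of 7.17e-06). The mitochondrial share of counts was 13.2% in shRBPMS and 15.2% in shCtrl in set 1, and at most 6.95% in set 2. The part of the sets' different RBPMS levels and mitochondrial shares in these results was not tested.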

How the results depend on the processing

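Limits: set 1 has 1 library per group, the compound groups have 2 libraries, NYNRIN and DPYSL3 rest on few counts, and RB98# has no stated dose or time. Members called under knockdown numbered 2 in the edgeR test of group alone, 3 with the replicate block, 5 in label set 2 alone, and 0 to 2 when 1 library was left out, where 3 to 5 had an unadjusted p under 0.05. Under RB98# they numbered 2, but 1 by the DESeq2 Wald test, 1 with the replicate block and 1 to 2 when 1 library was left out. For the difference of both effects they numbered 2, and 0 to 3 when 1 library was left out. Reversals concerned values that had not passed the test. Under knockdown, with 1 library left out, CD34 ran from -0.10 to 0.36, LAPTM4B from -0.0222 to 0.0764, ARHGAP22 from -0.36 to 0.13 and ZBTB46 from -0.43 to 0.54. In set 1 alone CD34 was at -0.29 and ARHGAP22 at 0.16, in set 2 alone ZBTB46 was at -0.21, and with replicates 2 and 3 summed ARHGAP22 was at 0.0132. Under RB98#, CPXM1 ran from -0.12 to 0.0667 and RBPMS from -0.0339 to 0.24 with 1 library left out, and LAPTM4B was at -0.0217 with library totals only. For the difference, LAPTM4B was at -0.10 with library totals only and ran from -0.0154 to 0.0755 with 1 library left out, where SMIM24 ran from -0.0188 to 0.25. All-gene calls under knockdown numbered 320, but 1346 by the DESeq2 Wald test, 4549 with the block, 5810 with the label set as a covariate, 6830 in set 2 alone, 2681 with replicates 2 and 3 summed, and 0 to 322 when 1 library was left out. Under RB98# they numbered 4659, and 2731 to 5028 when 1 library was left out. For the difference they numbered 988, but 1796 by the DESeq2 Wald test, 4497 with the block, 5439 with the label set, and 92 to 1541 when 1 library was left out. The cause was not tested.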
